A study of Mus musculus with 32 samples.

Results

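Lung RNA of newborn mice given antimiR-34a was compared with lung RNA of newborn mice given a scrambled antimiR, both raised in 85% O2 and taken at post-natal day (P)14. The 8 arrays were those whose labels read P14, hyperoxia and either antagomiR or scrambled, 4 arrays a side, out of 32 arrays in the series. They were fitted together with the 8 arrays of the same age from 21% O2, so that 16 arrays set the estimate of the spread.

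The study used exposure to 85% O2 as a model of bronchopulmonary dysplasia, a lung disease of preterm infants in which the formation of alveoli stops early. Newborn pups were spread at random over nursing dams and kept in hyperoxia or in normal air over the same days. The question was which transcripts of the injured lung differ when miR-34a is blocked. Each array holds whole-lung RNA that was labelled with Cy3 and hybridised to an Agilent mouse gene expression array.

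All 8 mice were wild-type C57Bl/6J pups, and both sexes were used. Both groups were injected intraperitoneally with a locked nucleic acid oligonucleotide at P1 and P3, which was either complementary to miR-34a or of a scrambled sequence, and both were exposed to 85% O2 over the same days. The labels give the age as P14. The 21% O2 groups received the same oligonucleotides in normal air. The blood was flushed from the lungs with saline before the RNA was taken. The oligonucleotide reached all cells that took it up, so the design singles out no lung cell type. No miR-34a level was measured on these arrays, which carry probes for messenger RNA and long non-coding RNA.

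MicroRNAs guide the Argonaute protein to messenger RNAs that pair with their seed, the stretch of bases 2 to 8, and lower the stability or the translation of those messengers. The miR-34 family is induced by p53 and holds back cell division, and its best known targets include cell cycle kinases, Notch ligands and receptors, growth factor receptors and the deacetylase Sirt1. In the lung of a newborn mouse the weeks after birth are the time of alveolar septation, which depends on myofibroblasts that carry the PDGF receptor alpha (Pdgfra) and lay down elastin.

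The seed that an antimiR against miR-34a has to cover is shared with other microRNAs, which is why those below are shown. miR-34c-5p is not shown. Sequences are from RefSeq on GRCm38.p6, 5′ to 3′, with the seed in capitals. miR-34a-5p lies on the forward strand at chr4:150068473-150068494, and the other 3 lie on chromosomes 9 and 13.
mmu-miR-34a-5p: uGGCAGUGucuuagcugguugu
mmu-miR-34b-5p: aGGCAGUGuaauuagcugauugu
mmu-miR-449a-5p: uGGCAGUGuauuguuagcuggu
mmu-miR-449c-5p: aGGCAGUGcauugcuagcugg
All 4 carry the seed GGCAGUG and differ in the bases after it.

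The samples were lung by their markers. On all 16 arrays of P14 the surfactant gene Sftpc and the club cell gene Scgb1a1 lay at a log2 level of 8.44 or more above the array's 75th percentile, which is the zero of every level given here. Aqp5 of type I pneumocytes and Pecam1 of endothelium were well above background on every array in 85% O2. Between 34603 and 36475 probes per array were above background in 85% O2, and between 39009 and 40776 in 21% O2. The 8 arrays in 85% O2 correlated with each other at 0.986 to 0.996.

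All 8 arrays lay on 1 slide, the scrambled mice in its first row and the antimiR-34a mice in its second, so an effect of the row cannot be told apart from that of antimiR-34a. The 21% O2 arrays lay on another slide, so oxygen and slide cannot be told apart either. The labels number the samples of a group 1 to 4 and say nothing else of the mice behind them, so the p-values measure the spread between these samples.

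Some arrays stood apart. AntimiR-34a mouse 2 was more than 2-fold above all 7 other arrays on 98 of 31893 probes. Among them were genes of acute injury and stress. Its level of Il11 was 2.28 against −1.46 to −0.40 on the other 7 arrays. Its level of Timp1, an inhibitor of matrix proteases, was 5.79 against 3.27 to 3.81, and that of the metallothionein Mt2 was 7.28 against 4.18 to 5.27. AntimiR-34a mouse 4 was above the rest on 77 probes and below on 72. Its airway secretory list had a mean level of 4.21 against 1.21 to 2.17, and its adipocyte list −1.97 against −5.37 to −4.97. Scrambled mouse 1 was below all others on 153 probes.

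The transcripts that tell the sexes apart did not split the arrays cleanly. Ddx3y of the Y chromosome and Xist of the inactive X chromosome were both well above background on the arrays of scrambled mice 2, 3 and 4. Scrambled mouse 1 and antimiR-34a mouse 4 had Ddx3y without Xist, and antimiR-34a mice 1, 2 and 3 had Xist without Ddx3y. Ddx3y was thus well above background on all 4 scrambled arrays but on only 1 of the 4 antimiR-34a arrays. The compared groups were unbalanced in this gene, so an effect of sex cannot be fully told apart from that of antimiR-34a. The labels give no sex and mention no pooling, so whether each array holds the RNA of 1 mouse is not known. The word mouse stands here for the sample on 1 array. In 21% O2, mouse 4 of either group also had both. With the Y chromosome gene level as a covariate 581 probes were called in the comparison below, and the counts without single arrays are given beside the results they touch.

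**Figure D1:**
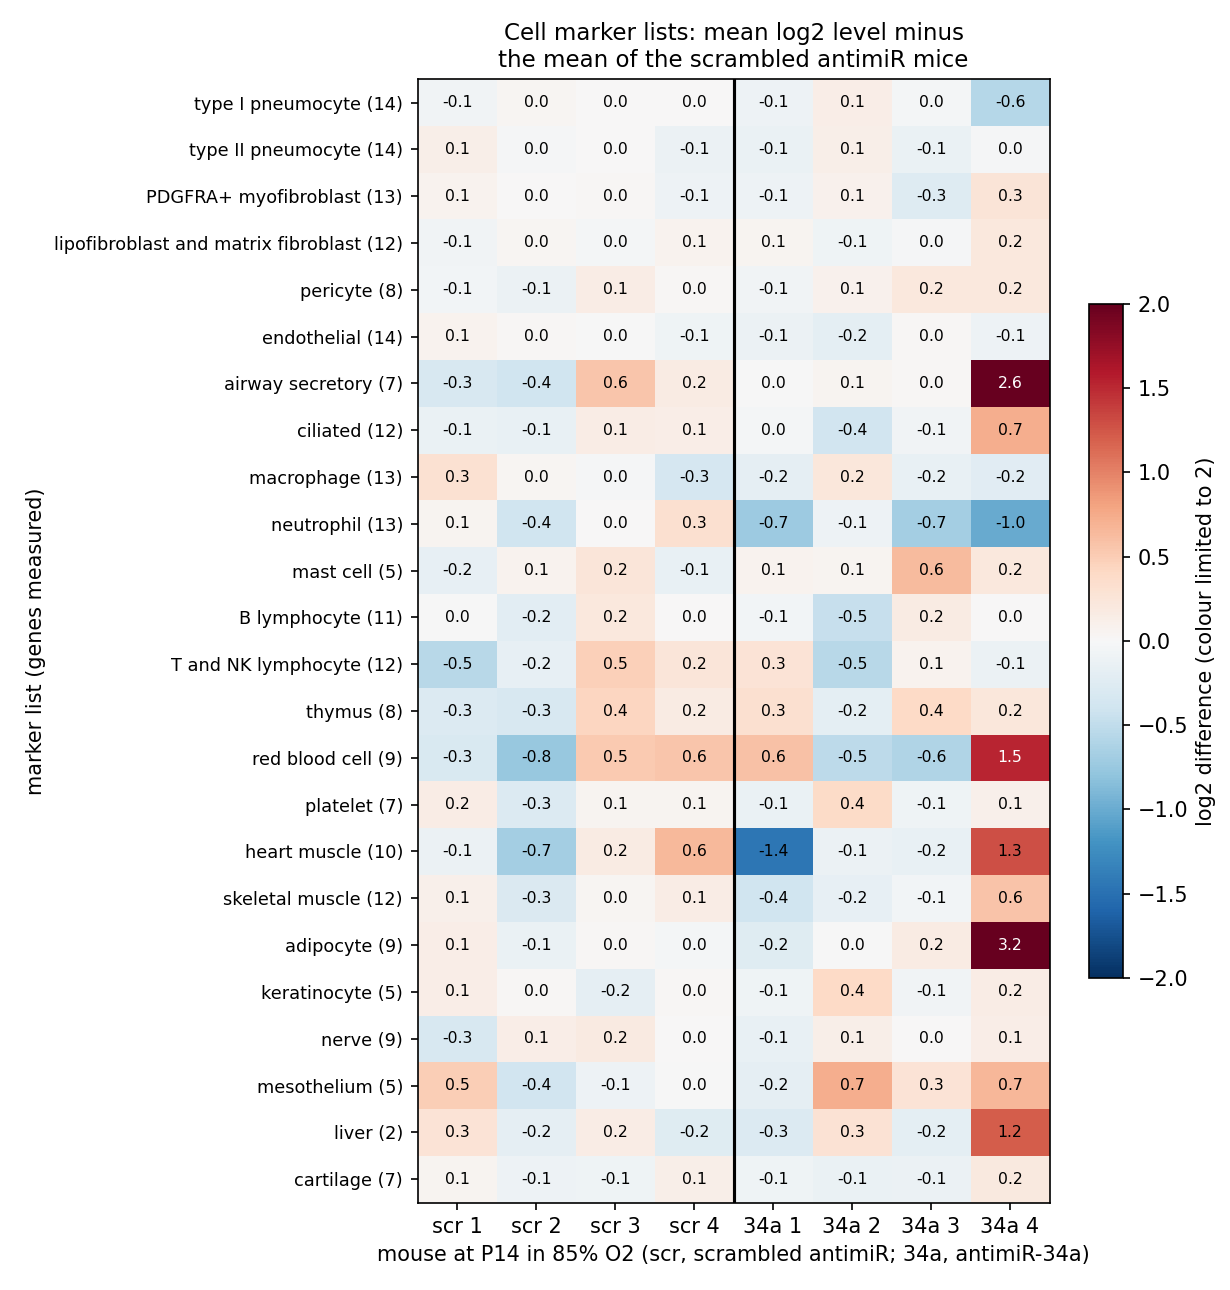
Mean log2 level of each of 24 cell marker lists in each of the 8 mice in 85% O2 at P14, as the difference from the mean of the 4 scrambled antimiR mice (left 4 columns, scrambled antimiR; right 4 columns, antimiR-34a). Colour and number give the log2 difference, and the number after each list is that of its genes measured. AntimiR-34a mouse 4 stands apart in the airway secretory, adipocyte, red blood cell, heart muscle and type I pneumocyte lists, and the neutrophil list is below the scrambled mean in all 4 antimiR-34a mice.

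With antimiR-34a, 1025 of 38455 tested probes differed from the scrambled antimiR at a limma adjusted p under 0.05, or 2.67% of the tested probes. Of these, 451 were higher (1.17%) and 574 were lower (1.49%). The changes were small. The median size among the called probes was 0.58 on the log2 scale, and 162 of them, 41 higher and 121 lower, changed by 2-fold or more. The median change of all tested probes was −0.04. The called probes carried 527 gene symbols.

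The count rested on the spread of all 4 groups of P14. The median standard deviation of a probe was 0.183 among the scrambled mice and 0.198 among the antimiR-34a mice in 85% O2, against 0.147 and 0.143 in 21% O2. When limma was fitted to the 8 arrays in 85% O2 alone, 2 probes were called, and 5093 had an unadjusted p under 0.05. The methods' t-test on the same values called 0 probes after the Benjamini-Hochberg correction that the methods name, and 4315 had an unadjusted p under 0.05, 1562 higher and 2753 lower. By limma over the 16 arrays, 6356 probes had an unadjusted p under 0.05. The paper reports that in hyperoxia antimiR-34a left whole-lung expression on its messenger RNA arrays unaffected at P5 and P14.

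Leaving out an array moved the count in either direction. Without antimiR-34a mouse 2, the array with the injury genes, 1376 probes were called, 1373 of them (3.57%) among the 38455, and these held 836 of the 1025, and none of the 1025 changed sign. Without scrambled mouse 2 the count was 478, with 450 of the 1025 among them. Without scrambled mice 3 and 4, each in turn, it was 640 and 530, and without antimiR-34a mouse 4 it was 490. Without scrambled mouse 2 of 21% O2, which enters only the estimate of the spread and the choice of probes tested, it was 681. With antimiR-34a mice 2 and 4 both left out, 662 were called. With scrambled mice 2, 3 and 4 left out, which leaves 1 scrambled array whose spread is taken to be that of the other groups, 626 were called, 486 higher and 140 lower, of which 97 were among the 1025. These last 2 settings were chosen after the data had been seen.

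Between mice, 979 of the called probes showed no overlap of the 4 mice with antimiR-34a and the 4 with the scrambled antimiR. Over all tested probes with 8 values this held for 3657 of 38359, or 9.53%. Of 21630 probes named by a gene symbol, 298 were called higher and 264 lower. Long intergenic non-coding RNA probes and other probes named by chromosome position were called lower more often than higher, 191 against 88 of 9005, with a median change of −0.11 over all of them.

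**Figure D2:**
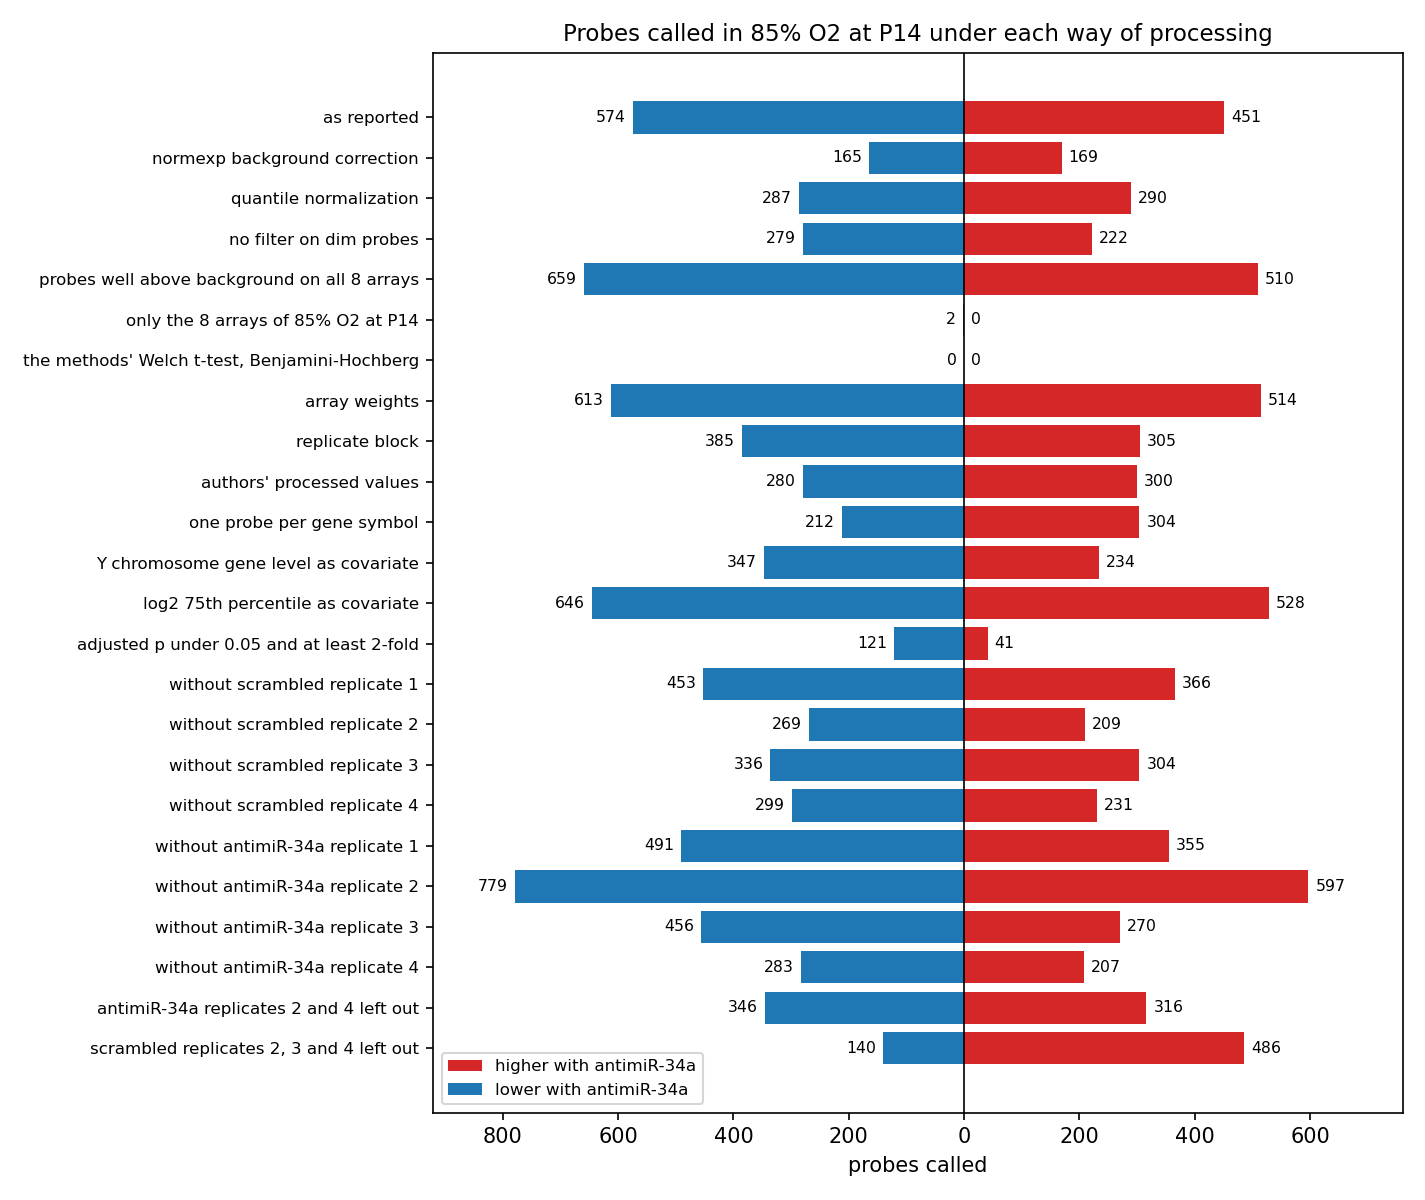
Number of probes called in 85% O2 at P14 under each way of processing, with higher counts to the right of the zero line and lower counts to the left. The fit as reported gives 451 higher and 574 lower, the 8 arrays alone give 0 and 2, and without antimiR-34a replicate 2 the counts are 597 and 779.

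The named genes were the 15 largest rises and the 15 largest falls among called gene symbols that were well above background on all 8 arrays, with no overlap between the groups. Of 478 such genes, 264 were higher and 214 lower. The rises lay between 0.88 and 2.45 on the log2 scale and the falls between 1.21 and 1.69. All 30 remained called without antimiR-34a mouse 2, and 9 of the rises and 13 of the falls without scrambled mouse 2. The calls lost there were those of Tnfsf18, Ptgs2, Ankfy1, Abcd2, Cyr61, Zfp354b, Serpina3f and D7Bwg0826e. Over all 56 called named genes of every group below, 28 calls were lost without antimiR-34a mouse 4, 25 without scrambled mouse 2 and 6 without antimiR-34a mouse 2. For each gene below, the levels are given in the order of mice 1 to 4, and positions are those of the probe on mm9. That the groups did not overlap was a condition of choice for the 30 genes and is no result where it is told of them.

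Genes of immune signalling and acute response were among the rises. Tnfsf18, the ligand of the T cell receptor GITR, had levels of −5.79, −5.36, −4.70 and −5.09 with the scrambled antimiR and −3.62, −0.56, −3.87 and −3.09 with antimiR-34a (chr1:163435352-163435411). The antimiR-34a mice were all higher, and mouse 2 was far above the other 3. The change was 2.45 (SE 0.57, limma adjusted p = 0.0379), and 1.71 (adjusted p = 0.0157) without that mouse. No array in 21% O2 was above background for this probe.

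Ptgs2, the inducible cyclooxygenase of prostaglandin synthesis, had levels of −2.48, −2.25, −1.93 and −2.09 with the scrambled antimiR and −1.41, −0.24, −1.62 and −0.995 with antimiR-34a (chr1:151954744-151954803). The groups did not overlap, and mouse 2 was again the highest. The change was 1.12 (SE 0.23, limma adjusted p = 0.0199) and 0.85 without mouse 2. At P5 in 85% O2 the same contrast was −1.23.

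Cyr61, a secreted matrix protein that cells make within minutes of growth factors or stretch, stood at 3.71, 3.69, 3.82 and 3.77 with the scrambled antimiR and at 4.21, 4.88, 4.38 and 5.18 with antimiR-34a (chr3:145310187-145310246). The scrambled mice lay close together below all antimiR-34a mice. The change was 0.92 (SE 0.19, limma adjusted p = 0.0256).

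Zinc finger genes, many of which encode repressors of transcription, were also among the rises. Zfp82 stood at −0.78, −0.80, −0.84 and −1.02 with the scrambled antimiR and at −0.05, 0.22, 0.07 and 0.07 with antimiR-34a (chr7:30841071-30841130). Its change of 0.94 (SE 0.09, limma adjusted p = 0.000638) was large against the spread, and the 4 scrambled mice in 21% O2 lay between −0.05 and 0.29. Zfp128 rose by 0.96 and Zfp354b by 0.89. Zswim3, whose protein carries another zinc finger fold, rose by 1.03.

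The other rises had varied roles. Senp8, which removes the ubiquitin-like protein NEDD8 from its targets, stood at −4.80, −5.65, −4.97 and −4.88 with the scrambled antimiR and at −3.78, −4.22, −3.88 and −3.71 with antimiR-34a (chr9:59582070-59582129). The groups were separate, at a change of 1.18 (SE 0.17, limma adjusted p = 0.00392), and a second, brighter Senp8 probe rose by 0.74 (adjusted p = 0.00419). Noxred1, named for an oxidoreductase domain, rose by 1.01, and Abcd2, a fatty acid transporter of peroxisomes, by 0.94. Kctd21, an adaptor of cullin ubiquitin ligases, rose by 0.94, the kinase Dclk3 by 1.07, the endosomal protein Ankfy1 by 1.04, the acrosin-binding protein Acrbp by 0.94 and the pseudogene Slc22a13b-ps by 0.88.

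The deepest of the 15 named falls was that of Camp, the cathelicidin antimicrobial peptide of neutrophil granules. Its levels were 0.33, −1.11, −0.36 and 0.71 with the scrambled antimiR and −1.53, −2.20, −1.53 and −1.92 with antimiR-34a (chr9:109749911-109749970). The groups did not overlap, and in 21% O2 the scrambled mice lay between −1.30 and −0.62. The change was −1.69 (SE 0.32, limma adjusted p = 0.0145), and a second Camp probe was also called lower.

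Serine protease inhibitors of the Serpina3 cluster, which rise in acute inflammation, gave 3 of the 15 falls. Serpina3h stood at −0.09, −0.07, 0.32 and −0.32 with the scrambled antimiR and at −1.60, −1.05, −1.34 and −2.04 with antimiR-34a (chr12:105491733-105491792). The change was −1.47 (SE 0.18, limma adjusted p = 0.00223). In 21% O2 the scrambled mice lay between −2.48 and −2.38, so that the antimiR-34a mice in 85% O2 lay between the 2 scrambled groups. Serpina3f fell by 1.41, and Serpina3i, at −0.24 to 0.61 with the scrambled antimiR and −1.45 to −0.58 with antimiR-34a, fell on both of its probes. Over the whole cluster, chosen after the values had been seen, 5 of 10 tested probes under 8 symbols were called lower and 0 higher, against 1.49% and 1.17% of all tested probes, with a median of −0.81. Without scrambled mouse 2, 2 of these 5 remained called, 1 of Serpina3h and 1 of Serpina3i. Serpina3n, the member most used as a marker of inflammation, was at 0.73 (SE 0.36, adjusted p = 0.342), with 0.35, 2.34, 0.13 and 1.03 in the antimiR-34a mice, of which mouse 2 was far above the rest. The members are near-identical copies, and how far their probes share transcripts was not tested.

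The other falls had varied roles. Kcnk5, a potassium channel that sets membrane potential and volume, stood at −1.11, −1.07, −1.11 and −1.59 with the scrambled antimiR and at −2.41, −2.68, −2.56 and −2.96 with antimiR-34a (chr14:20959684-20959743). The change of −1.43 (SE 0.15, limma adjusted p = 0.00114) left the antimiR-34a mice on both sides of the scrambled mice in 21% O2, which lay between −2.72 and −2.64. Slc10a6, a carrier of sulfated steroids, fell by 1.23 on its first probe, and its second was called as well. The membrane scaffold gene Mpp3 fell by 1.47, the cystatin Cst8 by 1.48 and the olfactory receptor Olfr170 by 1.38. D7Bwg0826e fell by 1.33, and the dystrobrevin gene Dtna moved from a mean of −1.65 to −2.95.

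For several of the falls another probe of the same gene did not move. Hbp1, a repressor of cell cycle genes, fell by 1.25 (SE 0.15, limma adjusted p = 0.00174) on a probe at −0.48, −0.81, −0.88 and −0.17 with the scrambled antimiR and at −1.75, −1.78, −1.68 and −2.11 with antimiR-34a. Its brighter probe changed by 0.01 (SE 0.10). Nfkbib, an inhibitor of NF-kappaB, fell by 1.21 on 1 probe while its brightest probe was at −0.01. Taok2, a kinase of stress signalling, fell by 1.35 on a probe with no genome position, and its brighter probe stood at 0.20 (adjusted p = 0.169). Ankrd33b fell by 1.33 and stood at −0.11 on its brightest probe, and Mpp3 at −0.21.

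This was also so for Ankfy1 among the rises, whose brighter probe was at −0.06. Of 56 named and called genes, 20 had more than 1 tested probe. All tested probes of a gene were called for 4 of these 20, Camp, Senp8, Serpina3i and Slc10a6. For 11 of the 20 the brightest probe was not called. A called probe of opposite sign was found for none. Calls of these genes thus belong to the probe named, and which transcripts each probe reads was not tested. With 1 probe for each symbol, the brightest, 516 of 15808 genes were called, 304 higher and 212 lower.

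**Figure D3:**
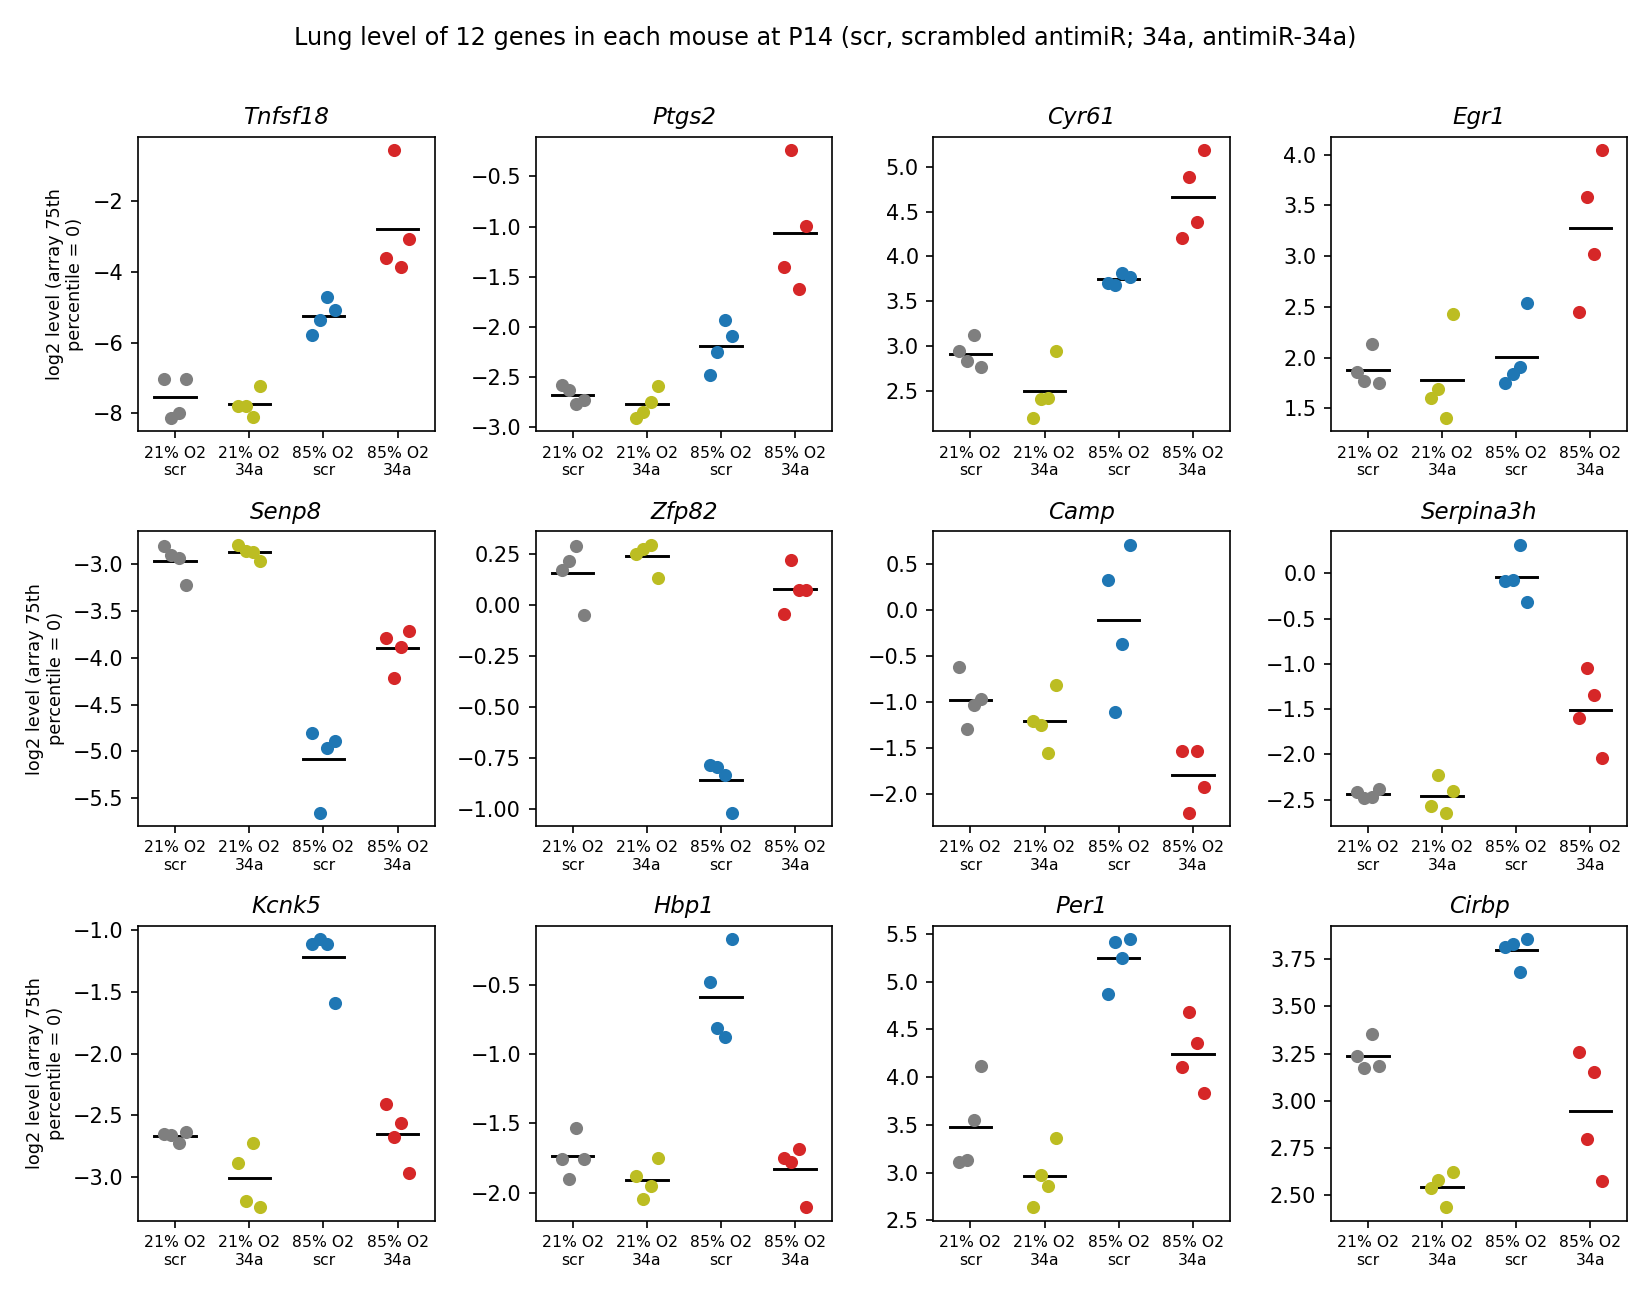
Log2 level of 12 genes in each of the 16 mice at P14, with the array's 75th percentile at 0 (points, single mice; lines, group means; scr, scrambled antimiR; 34a, antimiR-34a). In the 85% O2 groups on the right of each panel the antimiR-34a mice lie apart from the scrambled mice, except in Egr1, where mouse 1 with antimiR-34a at 2.45 lies under scrambled mouse 4 at 2.53.

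A few called probes were above background in only 1 of the groups, so that their change is a bound. Pabpn1l, a poly(A)-binding protein gene, was at least 2.15-fold higher with antimiR-34a (limma adjusted p = 0.00419). Tex35 was at least 2.70-fold lower (adjusted p = 0.0494), a call lost without antimiR-34a mouse 2 (0.0769) and without scrambled mouse 2 (0.0824). Vip, the vasoactive intestinal peptide, was at least 2.03-fold lower (adjusted p = 0.00999). The cation channel gene Trpm2 was called lower on 1 probe (adjusted p = 0.0341) and stood at −0.60 (adjusted p = 0.383) on another. Gas2l3 was called higher on a dim probe (adjusted p = 0.0466, and 0.0786 without scrambled mouse 2), while its brighter probes, above background in all 8 mice, stood at 0.22 and 0.20 and were not called.

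To read each change against the lung in normal air, its sign was set against the difference between scrambled mice in 85% and 21% O2. That difference was itself called on 23403 probes, 60.9% of those tested. Of the 15 named rises 11 went toward the 21% O2 level, and Tnfsf18, Ptgs2, Dclk3 and Cyr61 went away from it. Of these 4 the oxygen difference was positive, and called for all but Ptgs2 (0.49, limma adjusted p = 0.0736). All 15 named falls started toward it on the probe named. On the brightest probe of Mpp3 the means were −0.87 with the scrambled antimiR, −1.08 with antimiR-34a and 0.63 in 21% O2, and on that of Ankrd33b 0.15, 0.05 and 0.81, so both lay further from the 21% O2 level with antimiR-34a, while on that of Hbp1 they were 2.52, 2.53 and 3.26. Ankrd33b and Dtna among the falls and Ankfy1 among the rises passed the 21% O2 mean and ended further from it than the scrambled mice were, and the oxygen difference was not called for Ankrd33b (0.19, adjusted p = 0.371) or Ankfy1 (−0.28, adjusted p = 0.277). Some ended close to the scrambled mean in 21% O2, such as Kcnk5 at a mean of −2.65 against −2.67 and Zfp82 at 0.08 against 0.15. Camp, Mpp3, Cst8, Dtna and Ankrd33b ended below that mean, as did Hbp1 on the probe named, at −1.83 against −1.74. Serpina3i, which was 4.76 higher in the scrambled mice of 85% O2 than in those of 21% O2, stayed far above that mean. D7Bwg0826e was not well above background in 21% O2.

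Over all called probes 871 of 1025, or 85.0% (exact binomial 95% interval 82.6 to 87.1, counting error only), moved toward the 21% O2 level. This was 399 of the 451 higher probes and 472 of the 574 lower ones. Over all tested probes this held for 21553. Both differences use the same 4 scrambled arrays in 85% O2, with opposite sign, so that a share above that of all probes arises in part from the shared arrays, and nothing is read from it. Set against the oxygen difference of P5, which shares no mouse, 53.9% of the called probes (50.7 to 56.9) went toward the 21% O2 side, and 45.5% of all tested probes. By direction this was 56.5% of the called higher probes against 55.01% of all probes with a positive change, and 51.7% of the called lower probes against 38.5% of all with a negative change.

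**Figure D4:**
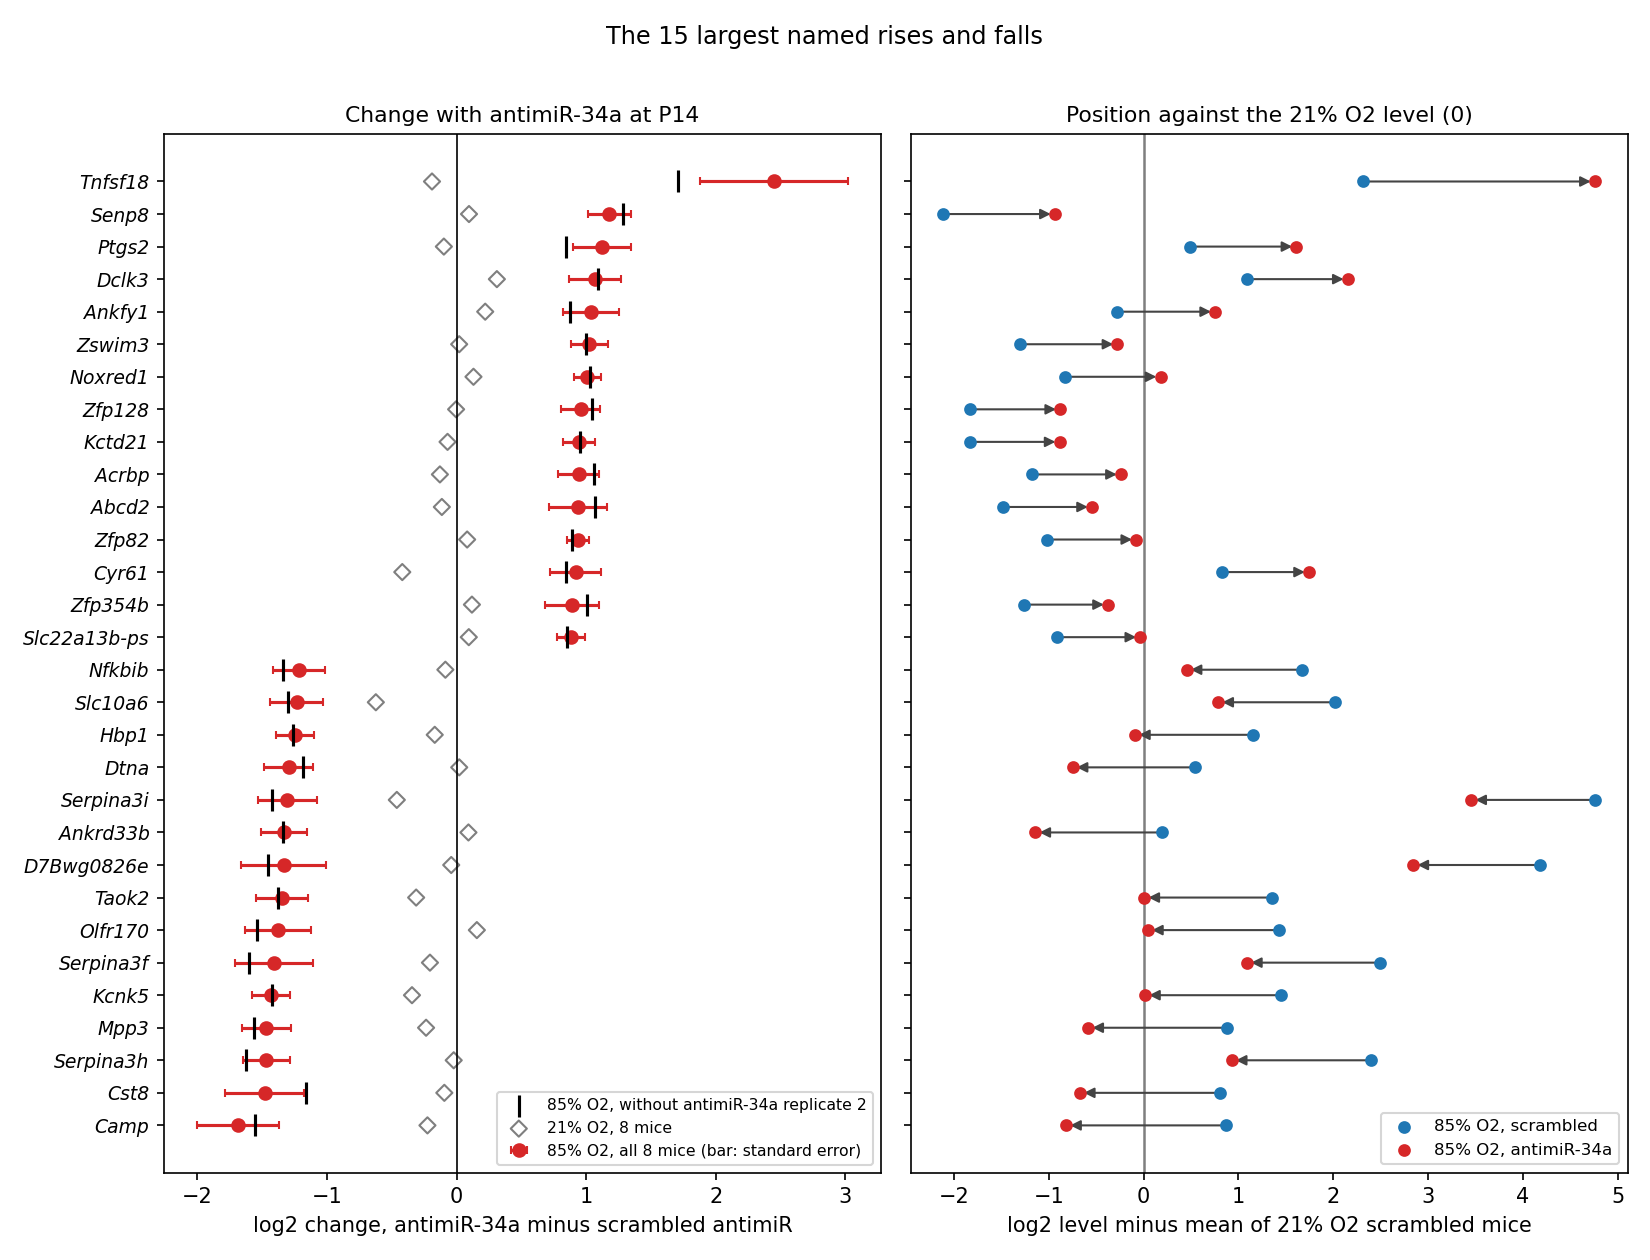
Left, log2 change with antimiR-34a of the 15 largest named rises and falls at P14 (red, 85% O2 with the standard error; black tick, without antimiR-34a replicate 2; grey diamond, the same contrast in 21% O2). Right, position of each gene's mean in 85% O2 against the scrambled mean in 21% O2, with an arrow from the scrambled to the antimiR-34a mice. The arrows of Tnfsf18, Ptgs2, Dclk3 and Cyr61 point away from 0 and those of the other genes start toward it, some of them passing it.

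In 21% O2 the same contrast called 0 of 38455 probes by limma, with 4033 at an unadjusted p under 0.05. The difference between the changes in 85% and 21% O2 was called on 34 probes (0.0884%), all of them among the 1025. The change in 85% O2 is part of that difference, so this overlap arises in part from the shared arrays. Zfp82, Noxred1 and Kctd21 of the named rises were among the 34, with differences of 0.86, 0.88 and 1.01, and none of the named falls. Zfp661, the adaptor Nck1 and the phosphodiesterase Pde9a also differed, as did the sperm genes Acr and Cabyr, which were lower with antimiR-34a in 85% O2. The count of 34 moved between 0 and 707 as single arrays were left out, the largest value without scrambled mouse 4 of 21% O2, and was 138 without antimiR-34a mouse 2.

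Between ages, the change in 85% O2 at P14 differed from that at P5 on 975 of 39162 probes (2.49%). Of the 1025 probes called at P14, 501 were among them and 3 were themselves called at P5. Of the named genes, 11 of the 15 rises and 7 of the 15 falls differed between the ages. The 1025 probes and these genes were chosen by their change at P14, which is part of this difference. A share above that of all probes thus arises in part from the choice, and nothing is read from it. Camp differed by −2.10, with a change of 0.41 at P5 that was not called. Kcnk5 differed by −0.88, with a change of −0.56 at P5 that was not called.

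The lists of pathways and cell types give the wider pattern. Of 50 lists, 14 held a called probe, 12 of them pathways, and 36 held none. Immediate early genes, which cells switch on without new protein synthesis, had 4 of 14 tested probes called higher, against 1.17% of all tested probes, and 0 lower. The list's median was 0.36, against −0.04 over all tested probes.

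Egr1, a transcription factor of that list, stood at 1.75, 1.84, 1.90 and 2.53 with the scrambled antimiR and at 2.45, 3.58, 3.02 and 4.04 with antimiR-34a. Mouse 1 with antimiR-34a lay just under scrambled mouse 4, and the change was 1.27 (SE 0.30, limma adjusted p = 0.0419). Zfp36, which destabilises cytokine messengers, rose by 0.81, and Btg2, an antiproliferative gene under p53, by 0.69. Fos, at 1.36 (SE 0.38, adjusted p = 0.081), did not pass, and Nr4a1 was at −0.78 (adjusted p = 0.163).

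The list leaned on a few arrays. Its mean level was 2.20 and 2.26 in antimiR-34a mice 2 and 4, 1.61 and 1.79 in mice 1 and 3, and 1.41 to 1.67 in the scrambled mice. Without antimiR-34a mouse 2 the calls of Egr1 (adjusted p = 0.0767) and Zfp36 (0.0658) were lost, 3 probes of the list were called and the median was 0.14. Without scrambled mouse 2, 1 was called, Btg2.

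The promoters of 2 of the rising genes are shown since each held a control element that was searched for. The 250 bases before the start, from RefSeq on GRCm38.p6, are given 5′ to 3′ on the gene's strand. Capitals mark a CArG box, the serum response element, in Zfp36 (chr7:28379229-28379478, reverse strand) and the cyclic AMP response element TGACGTCA in Btg2 (chr1:134079156-134079405, reverse strand).
Zfp36: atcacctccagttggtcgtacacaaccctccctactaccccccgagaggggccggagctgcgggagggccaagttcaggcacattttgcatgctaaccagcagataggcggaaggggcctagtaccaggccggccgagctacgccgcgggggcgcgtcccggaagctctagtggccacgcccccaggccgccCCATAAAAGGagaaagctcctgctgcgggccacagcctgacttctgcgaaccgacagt
Btg2: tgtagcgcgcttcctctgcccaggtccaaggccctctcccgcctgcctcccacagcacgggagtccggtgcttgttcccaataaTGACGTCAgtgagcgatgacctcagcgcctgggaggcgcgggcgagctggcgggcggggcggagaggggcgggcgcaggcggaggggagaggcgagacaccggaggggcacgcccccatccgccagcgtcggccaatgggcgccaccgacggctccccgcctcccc
Both strands were searched. A CArG box stands in 1.47% of 32851 promoters of the same length and TGACGTCA in 1.55%. The window of Cyr61, named Ccn1 in RefSeq, held neither motif, and that of Egr1 was not searched. A match is a description of the sequence and no evidence of binding in these lungs.

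The granule genes Camp and Ngp were lower. Of 14 probes of the neutrophil list 3 were called lower, against 1.49% of all tested probes, and 0 higher, and the list's median was −0.47. Ngp, a granule protein of immature neutrophils, stood at −2.15, −3.83, −3.14 and −2.24 with the scrambled antimiR and at −4.36, −5.82, −4.20 and −5.82 with antimiR-34a. The antimiR-34a mice were all lower, but 2 of the 4 were not well above background. The fitted change was −2.21 (SE 0.43, limma adjusted p = 0.0163). The other called probes were both of Camp.

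The more general neutrophil genes were at lower values without passing the test. S100a8 was at −0.76 (adjusted p = 0.264) and S100a9 at −0.84 (adjusted p = 0.212), Retnlg at −0.94 and the chemokine receptor Cxcr2 at −0.50. Lcn2 and Mmp8 were at −0.04 and 0.00. Without antimiR-34a mouse 2, 5 probes of the list were called, among them S100a8 at −1.12, S100a9 at −1.20 and Retnlg at −1.20. The list's mean level was −0.20 to 0.51 in the scrambled mice and −0.82 to 0.08 in the antimiR-34a mice, with mouse 2 the highest of the latter. In whole-lung RNA, fewer cells of a type and less RNA per cell cannot be told apart.

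The clock genes Per1 and Nr1d1 were called lower. Per1, a repressor of the clock, stood at 4.87, 5.41, 5.25 and 5.44 with the scrambled antimiR and at 4.11, 4.68, 4.35 and 3.84 with antimiR-34a. The groups did not overlap, and the change was −0.998 (SE 0.24, limma adjusted p = 0.0419). Nr1d1, the nuclear receptor Rev-erb alpha, was at −0.68 (SE 0.15, adjusted p = 0.0284). They were the 2 called of 23 probes of the list, 8.70% against 1.49% of all tested probes called lower, and the list's median was −0.18. Arntl and Clock, the activators of the clock, were at 0.07 and 0.27 and did not pass. Both calls were lost without scrambled mouse 2, with adjusted p of 0.105 for Per1 and 0.0788 for Nr1d1. A second Per1 probe had the opposite sign and was not called.

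RefSeq gives Per1 a pair of start sites. The window of the first (chr11:69098699-69098948, forward strand) is shown because it holds an E-box, CACGTG, in capitals, and that of the other (chr11:69099902-69100151) held none.
Per1: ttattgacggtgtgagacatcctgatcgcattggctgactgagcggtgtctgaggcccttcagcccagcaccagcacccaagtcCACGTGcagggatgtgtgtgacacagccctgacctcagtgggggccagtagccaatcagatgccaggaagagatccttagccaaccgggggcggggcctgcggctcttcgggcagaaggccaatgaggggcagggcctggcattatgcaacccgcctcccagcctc
This E-box stands in 6.02% of the promoters of that length, and the window of Nr1d1 held none.

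Of the heat shock list, 2 of 17 probes were called, 1 in each direction, against 2.67% of all tested probes. Cirbp, the cold-inducible RNA-binding protein, stood at 3.82, 3.83, 3.68 and 3.86 with the scrambled antimiR and at 3.26, 2.80, 3.15 and 2.58 with antimiR-34a. The groups were well apart, at −0.85 (SE 0.12, limma adjusted p = 0.00398). In 21% O2 its change was −0.69, which was not called (adjusted p = 0.474) although those groups did not overlap either, and the changes in the 2 oxygen levels did not pass the test of a difference (−0.16, adjusted p = 0.677). Rbm3, another cold-inducible gene, rose by 0.93 on a dim probe with overlapping groups, a call lost without scrambled mouse 2 (adjusted p = 0.0716), and was at 0.26 and 0.28 on its brighter probes, whose adjusted p were 0.0992 and 0.09. No other gene of the heat shock list was called, among them Hspa1a at 0.22.

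Notch signalling, by which neighbouring cells set each other's fate, had 4 of 16 probes called, 2 in each direction, against 2.67% of all tested probes, and a median of −0.07. The ligand Jag1 stood at 0.30, 0.24, 0.38 and 0.24 with the scrambled antimiR and at 0.97, 0.90, 0.45 and 0.75 with antimiR-34a, with mouse 3 close to the scrambled range. The change was 0.47 (SE 0.11, limma adjusted p = 0.0437). Among the targets of the pathway, Hey1 rose by 0.43 while Hes1 fell by 0.36 and Nrarp, a feedback inhibitor, fell by 0.78. The receptors Notch1 to Notch4 did not pass. Without scrambled mouse 2 none of the 4 was called, and without antimiR-34a mouse 2 all but Jag1 were.

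Messengers reported as direct targets of miR-34a were tested as a list, since their levels could rise when the microRNA is blocked. Of 31 genes 30 were tested on 47 probes. Jag1 and Angpt1, the ligand of the endothelial receptor Tie2, were called higher and none lower, 4.26% of the probes against 1.17% of all tested probes called higher. Angpt1 stood at 1.03, 1.11, 1.24 and 1.15 with the scrambled antimiR and at 1.27, 1.36, 1.48 and 1.53 with antimiR-34a, a small change of 0.28 (SE 0.07, limma adjusted p = 0.0465). The list's median was −0.03, against −0.04 over all tested probes. Neither gene was called without scrambled mouse 2.

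The cell cycle targets were at values near 0, with Cdk4 at −0.05, Cdk6 at −0.05, Ccnd1 at 0.15 and E2f3 at 0.24, and none passed. Snai1 was at 0.57 (adjusted p = 0.163), Met at −0.30 and Dll1 at −0.37 (adjusted p = 0.128). Sirt1 stood at 1.05, 1.04, 1.10 and 1.01 with the scrambled antimiR and at 1.05, 1.06, 1.08 and 1.13 with antimiR-34a. The change was 0.03 (SE 0.07, limma adjusted p = 0.879).

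Pdgfra, the receptor of alveolar myofibroblasts, stood at 0.36, 0.60, 0.89 and 0.69 with the scrambled antimiR and at 0.52, 2.28, 0.65 and 0.84 with antimiR-34a, against 3.07 to 3.13 for the scrambled mice in 21% O2. Mouse 2 was the only antimiR-34a mouse above the scrambled range. The change was 0.44 (SE 0.28, limma adjusted p = 0.478) with all mice and 0.03 without mouse 2. Elastin (Eln) had 4.02, 4.27, 4.07 and 4.23 with the scrambled antimiR and 4.03, 5.48, 4.07 and 4.90 with antimiR-34a. Its change was 0.48 (SE 0.24, adjusted p = 0.345) with all mice and 0.19 without mouse 2.

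The other genes that the study follows did not pass either. Kit, a receptor that 85% O2 had lowered by a log2 difference of −3.18, was at −0.26 (SE 0.12, adjusted p = 0.311). Acta2 of smooth muscle and myofibroblasts was at −0.13 (SE 0.15, adjusted p = 0.722), Aqp5 at −0.21 (SE 0.17, adjusted p = 0.583) and Sftpc at −0.15 (SE 0.13, adjusted p = 0.619). Without antimiR-34a mouse 2, Aqp5 was at −0.40 (limma adjusted p = 0.0933) and Sftpc at −0.13 (0.695), and Acta2 and Kit did not pass. These misses do not show that the levels were alike.

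Single genes were also called in other pathway lists. Trib3, a pseudokinase of the ATF4 stress response, stood at 3.19, 2.75, 2.91 and 3.47 with the scrambled antimiR and at 2.45, 2.47, 2.56 and 2.03 with antimiR-34a, a fall of 0.70. Sgk1, a kinase that glucocorticoids induce, fell by 0.50, a call lost without scrambled mouse 2. Its glucocorticoid and metallothionein list had a median of 0.12, and without antimiR-34a mouse 2 a median of −0.47 with 3 of 13 probes called. The retinoic acid receptor Rarg rose by 0.43, the chemokine Cxcl14 by 0.82 and the splicing factor Tra2a by 0.34. Angpt1 was the call of the PDGF and VEGF list. Without scrambled mouse 2 the calls of Rarg and Cxcl14 were lost too, and without antimiR-34a mouse 2 that of Cxcl14.

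Of the 24 cell lists, 2 held a called probe. Besides the neutrophil list these were the endothelial genes, of which Cldn5, a tight junction protein, fell by 0.29 and Ednrb, the endothelin receptor B, by 0.38, 2 of 19 probes against 1.49% of all tested probes called lower. Cldn5 lay between 6.83 and 6.87 in the scrambled mice and between 6.47 and 6.67 in the antimiR-34a mice. Both endothelial calls were lost without scrambled mouse 2, and that of Ednrb also without antimiR-34a mouse 2.

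No probe was called in the lists of type I pneumocytes (median −0.20, with a mean level of 3.53 in antimiR-34a mouse 4 against 4.00 to 4.24 in the other 7), type II pneumocytes (−0.04), PDGFRA+ myofibroblasts (−0.03), lipofibroblasts and matrix fibroblasts (−0.09), pericytes (0.12) or macrophages (−0.07). None was called among the genes of elastic fibres and collagens, cell division, p53 targets, TGF-beta and BMP, FGF, Wnt, IGF, interferon response, respiratory chain or ribosomal proteins. Without antimiR-34a mouse 2, 2 probes of the type I pneumocyte list, 3 of NRF2 targets and 1 of the elastic fibre list were called. Among markers of tissue that can adhere to a lung, the adipocyte list had 0 called and a median of 0.75, with antimiR-34a mouse 4 far above the other 7 mice, as the map of marker lists shows.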

How the data were processed

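Lung RNA was hybridised to one-colour Agilent mouse arrays. The authors deposited scanner tables of Feature Extraction 10.7.3.1, whose background-subtracted, processed intensity in the Cy3 channel was used, with gene names and positions on mm9 as the file headers and columns give them. The labels name the miRNeasy kit for RNA isolation and the methods the peqGOLD kit. The authors also deposited log2 values, with medians of 6.00 to 6.01 per array, which correlated at 0.997 or more with the log2 scanner values and are thus not centred by gene. How they were normalized is not given in the sources used here, and they served as an alternative.

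Control spots and outlier spots were left out and spots of a probe averaged. Levels are log2 of the intensity minus the array's 75th percentile. Of 55681 probes, the 38455 that were well above background in every mouse of some P14 group were tested. The 16 P14 arrays were fitted with a mean for each group (R 4.3.3, limma version 3.58.1), and a Benjamini-Hochberg adjusted p under 0.05 was called. The age comparison used all 32 arrays. The fit was tested on simulated data.

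Genes named were the 15 largest rises and falls among called symbols above background on all 8 arrays with no overlap between groups, up to 3 genes a direction called with signal in only 1 group, up to 4 called genes a list, and 7 genes the study follows. For a gene with several probes the called one with the largest change was named, and for the 7 the brightest. Members and lists were chosen with earlier results of these data known. The number of arrays limits the precision. Alternatives covered background correction, normalization, the dim probe filter, the arrays fitted, weights, covariates, the replicate block, the methods' t-test and leaving out each array. Replicate numbers were not taken to pair the mice: same-numbered mice of the 2 treatments correlated at −0.07 to 0.08 in 85% O2 and at −0.35 to 0.50 in 21% O2. The call of 1 list gene is not reported here.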

Additional observations from a re-analysis of the deposited data

Results flagged for a closer look

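In 5 of the pairs of a named gene and a group examined (3.97%), 1 mouse stood well apart from the other 3 of its group, which chance gives in about 1 in 20 groups. They were Abcd2 in antimiR-34a mouse 3 (log2 level −3.00), and Kcnk5 (−1.59), Ankrd33b (−2.18), Serpina3i (−0.24) and a dim probe of Gas2l3 (−6.91), all in scrambled mouse 4. That Gas2l3 probe was not well above background in any scrambled mouse, so its value there is one within background. Among 98 list and group pairs, 6 did so. AntimiR-34a mouse 2 stood apart in the mean level of the glucocorticoid and metallothionein list (3.98), the ATF4 stress response list (1.33) and the macrophage list (1.51). AntimiR-34a mouse 4 stood apart in the airway secretory list (4.21), the adipocyte list (−1.97) and the cartilage list (−3.38).

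The change with antimiR-34a in 85% O2 minus that in 21% O2 passed limma's test for Noxred1 (0.88), Kctd21 (1.01) and Zfp82 (0.86). These genes had been chosen by their change in 85% O2.

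The change in 85% O2 at P14 minus that at P5 passed the test for 22 named genes, which had been chosen by their change at P14. Its log2 value was 2.35 for Ptgs2, 1.15 for Ankfy1, 0.85 for Zswim3, 0.86 for Noxred1, 1.07 for Zfp128, 1.15 for Kctd21, 0.96 for Acrbp and 1.16 for Zfp82. It was 1.13 for Cyr61, 0.99 for Zfp354b, 1.18 for Slc22a13b-ps and 0.92 for Zfp36. It was below 0 for Camp (−2.10), Mpp3 (−1.16), Kcnk5 (−0.88), Taok2 (−1.28), Ankrd33b (−1.39), Hbp1 (−1.16), Nfkbib (−1.34) and Cirbp (−0.86). The fitted differences of Ngp (−2.75) and Tex35 (−2.25) are not measured sizes, since with antimiR-34a at P14 the Ngp probe was well above background in 2 of 4 mice and the Tex35 probe in 0.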

How the results depend on the processing

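Of 63 named genes 56 were called, and each was followed on its own probe. None of the 56 changed sign under normexp, quantile normalization, the authors' values, array weights, the replicate block or either covariate. None did so in the 8 arrays alone or without any 1 array in 85% O2. Neither did any of the 50 tested when only probes above background on all 8 arrays were kept. For named genes that were not called, a change of sign was not counted. Of the 56 that were called, 25 lost the call with normexp, 16 with quantile normalization and with the authors' values, 15 with array weights, 17 with the replicate block, 22 with the Y chromosome covariate, 5 with the 75th percentile covariate, 56 in the 8 arrays alone and 6 to 28 as 1 array in 85% O2 was left out. The other settings were run for counts only. On the brightest probe of the gene the sign turned for Ankfy1 (−0.06), Hbp1 (0.01), Taok2 (0.20). The count of 1025 called probes fell to 334 with normexp background correction, 577 with quantile normalization, 501 with no filter on dim probes, 580 with the authors' processed values, 516 with 1 probe per symbol, 581 with the Y chromosome gene level as a covariate, 162 at 2-fold or more, 2 in the 8 arrays alone and 0 by the methods' t-test after adjustment. Leaving out 1 array gave 478 to 1376. With settings chosen after the data were seen, it was 662 without antimiR-34a mice 2 and 4 and 626 without scrambled mice 2, 3 and 4. The share of calls that were higher, 44.0%, was 50.3% after quantile normalization, 50.6% with normexp, 51.7% with the authors' values, 58.9% with 1 probe per symbol and 77.6% without scrambled mice 2, 3 and 4. The cause was not tested.

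The share of called probes going toward the 21% O2 level was 88.9% with normexp, 87.7% with quantile normalization, 88.4% with no filter, 87.9% with the authors' values, 80.8% with 1 probe per symbol, 88.5% with the Y chromosome covariate, 82.2% with the 75th percentile as covariate and 0% of the 2 probes in the 8 arrays alone. It was 89.1% without antimiR-34a mice 2 and 4, 95.5% without scrambled mice 2, 3 and 4, and 76.997% to 89.0% as 1 array was left out.

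The 34 probes whose change differed between oxygen levels became 0 with normexp (3354 at an unadjusted p under 0.05 by limma), 1 with quantile normalization, 4 with no filter, 65 with probes above background on every array, 1 with the authors' values and 0 to 707 as 1 array was left out. The 975 that differed between ages became 602 with no filter and 472 to 1281 as 1 array was left out.

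With the replicate number as a block, 690 of the 38455 probes were called in 85% O2, 634 of them among the 1025, and 4 differed between oxygen levels.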

Other observations

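Genes named as zinc finger proteins were looked at as a group after their values had been seen. Of 552 tested probes of 373 genes, 53 were called higher (9.60%, against 1.17% of all tested probes) and 10 lower (against 1.49% of all tested probes), and the median change was 0.06. Their mean log2 level was −1.45 to −1.38 in the scrambled mice in 85% O2, −1.37 to −1.28 in the antimiR-34a mice and −1.13 to −1.12 in the scrambled mice in 21% O2. The mice of the 2 groups in 85% O2 did not overlap, though antimiR-34a mouse 2 at −1.37 came close to the scrambled range. Of the 53, 48 were called without antimiR-34a mouse 2 and 29 without scrambled mouse 2.

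Long intergenic non-coding RNA probes were also read by region, after the values had been seen, with positions on mm9. Of all probes of this class 2.12% were called lower and 0.977% higher. In the region chr2:157361470-157379813, on the reverse strand, 8 of 10 probes were called lower, with a median of −1.15, and 5 without scrambled mouse 2. In chr13:34693404-34717987, on the reverse strand, all 5 probes were called lower, with a median of −1.36. In chr1:138528250-138538250, on the forward strand, 6 of 10 were called higher, with a median of 0.91, and 5 of these also differed from the change in 21% O2. Probes of a region share transcripts and are not independent. What is transcribed there is not named in the files.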
